A study of Mus musculus with 6 samples.

Results

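The 9 genes described here encode basic helix-loop-helix (bHLH) transcription factors of the neural lineages: Neurod1, Neurod2, Neurod4 and Neurod6 of the NeuroD family, the neurogenins Neurog1 and Neurog2, the atonal homologue Atoh1, and Olig1 and Olig2 of the oligodendroglial family. Probes were chosen by the gene symbol of the array platform's annotation, and each gene had 1 probe, so that 9 of the 23473 probes on the array belong to the set. The set was proposed with results of these arrays known, among them the Neurod1 difference between the groups, so the members' differences between the groups are given as descriptions, without tests. RNA came from astrocytes grown from the cortex of newborn (P0) C57BL/6J mice carrying Chd7flox/flox, in which Cre recombinase removes the part of Chd7 that lies between its recombination sites. The cultures behind all 6 samples carried the floxed alleles and received a lentivirus. They grew in the presence of serum (10% FBS), the growth factors EGF and FGF2, and the supplement B-27. The control group (3 arrays) was infected with a control lentivirus and the Cre group (3 arrays) with a Cre lentivirus, and RNA was taken 3 days later. No Cre culture with unfloxed Chd7 was among these groups, so Cre itself and the loss of Chd7 cannot be told apart. Whether the 3 replicates of a group are separate cultures or animals is not stated in the labels, so the spread between them may be technical.

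Proneural bHLH factors bind DNA as dimers with the broadly expressed E-proteins, at the short motif called the E-box. Neurogenins and Atoh1 act early, committing progenitors to a neuronal fate and switching on Notch ligands and later bHLH genes, among them those of the NeuroD family, which act in differentiating neurons. Id proteins lack the DNA-binding basic region and take E-proteins away from these factors, and Hes and Hey proteins repress proneural genes downstream of Notch. Olig2, together with Olig1, acts in the specification of oligodendrocyte precursors and motor neurons, and both are also transcribed in cortical progenitors and in part of the astrocyte lineage.

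On the arrays, 2736 blank spots without a probe gave the background, at 62.4 to 70.8 intensity units on average and an SD of 1.07 to 1.87 units. Spots more than 2 SD above the blank mean were taken as above background, which held for 82.8% to 90.7% of all probes on an array. The bar is a low one: of 1185 probes for olfactory and vomeronasal receptors, 45.8% to 65.5% passed it. The 95th percentile of those receptor probes, 26.7 to 49.97 SD above the blanks depending on the array, is therefore given as a second reference. Among markers of the labelled cell type, all 12 astrocyte genes lay above that second reference on every array. The brighter probe of Chd7, the targeted chromatin remodeller, stood 53.3, 157 and 57.9 SD above the blanks on the control arrays and 8.26, 7.59 and 11.4 SD on the Cre arrays. The other Chd7 probe stood 13.7, 22.9 and 18.3 SD above them on the control arrays and 9.52, 7.04 and 15.3 SD on the Cre arrays. The positions of both probes relative to the removed part of the gene are unknown here. Microglial markers were lower in the Cre group for 8 of 10 genes (median log2 difference -0.14, 0 called), and their summed signal over the blanks was 344 to 495 units on the control arrays and 187 to 324 on the Cre arrays. Astrocyte markers were higher in the Cre group for 10 of 12 genes (median log2 difference 0.23, 0 called), with summed signals of 36347 to 59252 units on the control arrays and 46933 to 50632 on the Cre arrays. The part of these shifts in the results below was not tested. In RNA from whole cultures, fewer cells of a type and less RNA per cell cannot be told apart.

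Measured against the blank spots, the genes fell into Olig1 and Olig2, 267 to 3971 SD above them on all 6 arrays, and 7 proneural genes at most 41.6 SD above them. In all, 7 of the 9 probes were above background on at least 3 arrays, beside 87.5% of all probes on the array. Neurog2 passed on 0 arrays and Neurod4 on 2. Neurod2 passed on 5, and Neurod1, Neurod6, Neurog1, Atoh1, Olig1 and Olig2 on 6. With the receptor probes as the reference, Olig1 and Olig2 were past the 95th percentile on all 6 arrays and the other 7 genes on 0, beside 44.7% of all probes on at least 3 arrays. A distance from the blanks depends on how well a probe binds its target as well as on the amount of RNA, so the distances do not order the genes by abundance.

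**Figure D1:**
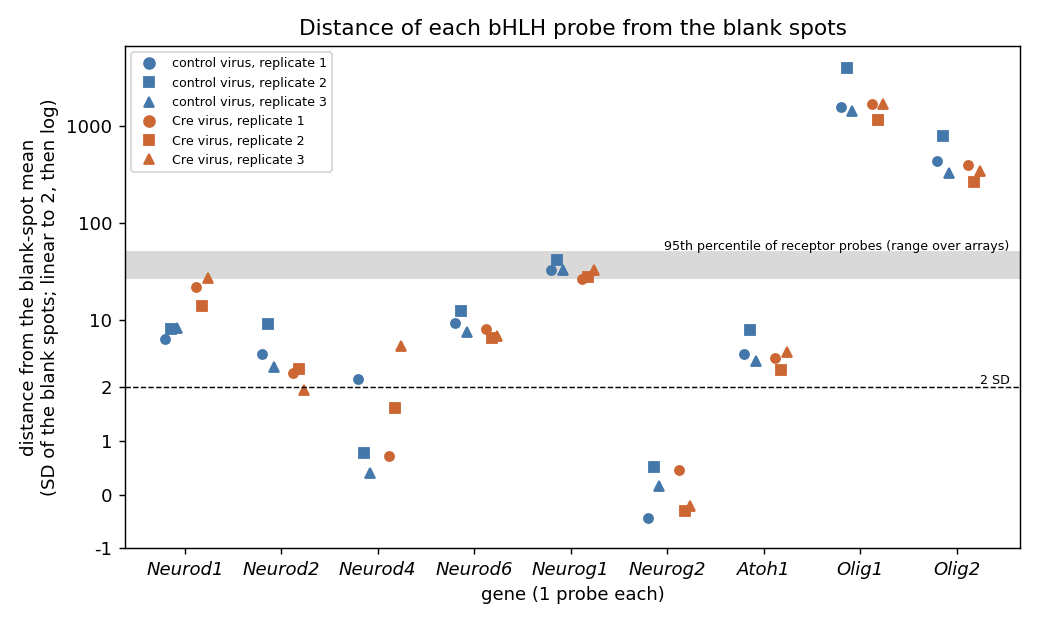
Distance of each of the 9 probes from the mean of the blank spots, in SD of the blank spots, on each of the 3 control virus and 3 Cre virus arrays (vertical axis linear up to 2 and logarithmic above); the dashed line is at 2 SD and the grey band is the range over arrays of the 95th percentile of 1185 olfactory and vomeronasal receptor probes. Olig1 and Olig2 lie above the band on every array, Neurog1 lies at its height, and Neurog2 lies below the dashed line throughout.

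Olig1, whose product promotes oligodendrocyte maturation and myelin repair, gave the brightest of the 9 signals. Its spot read 2022, 4320 and 1707 units on control arrays 1, 2 and 3, and 3230, 1714 and 2136 units on Cre arrays 1, 2 and 3. These are 1453 to 3971 SD above the blanks in the control group and 1163 to 1714 SD in the Cre group. Control array 2 was the highest on both scales, and the groups overlapped.

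After background correction and normalization, Olig1 stood at 11.12, 11.81 and 10.81 log2 units in control and 11.47, 11.002 and 11.01 in Cre cultures. The group means were 11.25 ± 0.51 and 11.16 ± 0.27 (SD, n = 3 each), a log2 difference, Cre minus control, of -0.09 (SE 0.28, 95% interval -0.79 to 0.62). The same-numbered arrays differed by 0.35, -0.81 and 0.20, so the sign was not shared by the 3 pairs. Leaving out 1 array at a time gave log2 differences from -0.30 (without control replicate 3) to 0.20 (without control replicate 2). Without Cre replicate 1 it was -0.24, and without Cre replicate 2 or 3 it was -0.01; without control replicate 1 it was -0.15. The interval reaches well past the measured difference on both sides of 0.

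Olig2, the factor required for the oligodendrocyte and motor neuron lineages, showed the same order of control arrays. Its spot read 607, 911 and 435 units in control and 820, 442 and 489 units in Cre cultures, or 327 to 790 and 267 to 402 SD above the blanks. The normalized log2 values were 9.33, 9.46 and 8.83 in control and 9.48, 9.002 and 8.87 in Cre cultures. The groups overlapped, with means of 9.20 ± 0.33 and 9.12 ± 0.32 (SD, n = 3 each) and a log2 difference of -0.09 (SE 0.23, 95% interval -0.65 to 0.48). Same-numbered arrays differed by 0.15, -0.46 and 0.05, so 1 pair was negative. Leaving out 1 array at a time gave log2 differences from -0.28 (without control replicate 3) to 0.04 (without control replicate 2). Without Cre replicate 1 it was -0.27, without Cre replicate 2 it was -0.03 and without Cre replicate 3 it was 0.04; without control replicate 1 it was -0.02.

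In the authors' processed table, which is on a linear scale, Olig1 read 1237, 2259 and 1141 in control and 1633, 1036 and 1206 in Cre cultures. The means were 1546 ± 620 and 1292 ± 308 (SD, n = 3 each), a ratio of Cre to control of 0.836. Olig2 read 343, 449 and 257 in control and 387, 238 and 244 in Cre cultures, with means of 350 ± 96.2 and 290 ± 84.3 (SD, n = 3 each) and a ratio of 0.828. For both genes control replicate 2 was the highest array, and both differences between means were smaller than the SD of the control group.

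**Figure D2:**
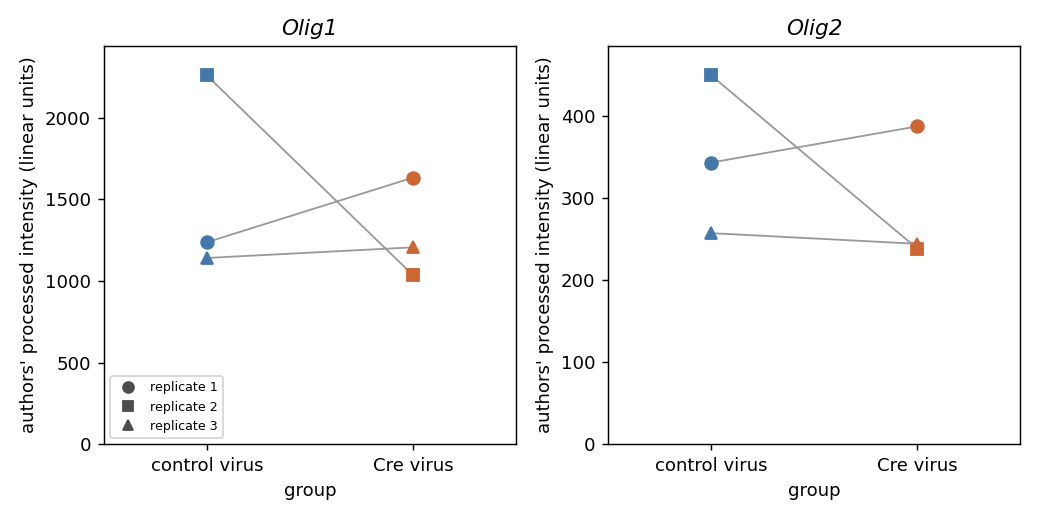
The authors' processed intensity (linear units, axes from 0) of Olig1 on the left and Olig2 on the right for each array, by group; marker shapes are replicate numbers and grey lines join same-numbered arrays. Control replicate 2 is the highest array in both panels (2259 for Olig1, 449 for Olig2) and its line falls, while the replicate 1 lines rise.

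The scanner's local background around the Olig1 spot was itself high, at 510 to 1815 units in control and 1057 to 1762 units in Cre cultures. On Cre array 2 it exceeded the spot (1762 against 1714 units). When this local background was used for the correction, the log2 difference of Olig1 was -0.85 and that of Olig2 was 0.15, so the choice of background moved the 2 genes apart.

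Olig1 and Olig2 are adjacent protein-coding genes in the RefSeq annotation of GRCm38.p6. Their outer neighbours were measured too. Ifnar2, an interferon receptor subunit next to Olig1, showed a log2 difference of 0.04 (SE 0.04), and 4932438H23Rik, next to Olig2, one of 0.01 (SE 0.03). The upstream sequence of Olig2 is shown, to be set beside that of Neurod1, as that of a gene far above the blanks. The 250 bases that end at the start, chr16:91225300-91225549 on the plus strand of GRCm38.p6 (RefSeq), read 5′ to 3′:
Olig2: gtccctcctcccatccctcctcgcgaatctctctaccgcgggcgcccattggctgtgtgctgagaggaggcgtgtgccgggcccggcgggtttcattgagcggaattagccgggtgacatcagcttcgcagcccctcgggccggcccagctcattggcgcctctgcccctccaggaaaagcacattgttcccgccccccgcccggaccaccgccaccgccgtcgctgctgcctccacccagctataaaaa
The E-box CANNTG (N is any base, and the motif reads alike on both strands) would be in capitals, and there was no match in this window.

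The 3 genes whose profiles over the 6 arrays were most like that of Olig1, each profile centred on its own mean, were Arsa, which encodes the lysosomal arylsulfatase A, Exoc4, a subunit of the exocyst, and Wwc1, which encodes the scaffold protein KIBRA. Their root mean square differences from Olig1 were 0.06, 0.07 and 0.08 log2 units over 6 arrays. Their own log2 differences between the groups were -0.13, -0.06 and -0.07, and all 3 were highest on control array 2. Being chosen for likeness to Olig1, they could hardly differ from it in these respects.

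Most genes of the oligodendrocyte lineage stayed below the receptor reference on these arrays. All 18 listed genes with a probe were tested, 7 were higher and 11 lower in the Cre group, none was called, and the median log2 difference was -0.01, beside -0.0004 over all 17119 genes tested. On the control arrays 18 of 18 were above background and on the Cre arrays 16 or 17, but only 2 or 3 exceeded the receptor reference on any array. Sox10, the regulator shared by all oligodendroglial stages, read 6.47 and 6.46 log2 units in control and Cre cultures. Pdgfra, the receptor that marks oligodendrocyte precursors, read 5.97 and 5.90. Mbp, a major myelin protein, read 6.54 in both groups. Cnp, a myelin-associated enzyme, was brighter, at 9.09 and 9.37 log2 units (difference 0.27, SE 0.28). The 2 genes of the list with the smallest unadjusted p were the tight-junction gene Cldn11, with a log2 difference of 0.14 (SE 0.07), and the Sox10 relative Sox8, with 0.09 (SE 0.05). Before normalization, the signal above the blanks summed over the list was 746, 1549 and 875 units in control cultures. In Cre cultures it was 1261, 889 and 980 units. Cnp, at 234 to 917 SD above the blanks, was the brightest gene in this sum. The sum was highest on control array 2, as was that of the astrocyte list (59252 units). After normalization the median of the oligodendrocyte list was 6.03 log2 units on that array and highest on Cre array 2, at 6.16. The part of oligodendroglial cells in the Olig signals was not tested.

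Neurod1, which drives neuronal differentiation and is also known from pancreatic endocrine cells, was the 1 member tested whose groups did not overlap in the normalized log2 values, beside 10.5% of all probes tested; nothing is read from this count, since the gene was chosen with the contrast in view. Its spot read 72.5, 73.1 and 75.3 units in control and 111, 81.8 and 103 units in Cre cultures. Less the blank mean, this left 7.83, 8.52 and 9.30 units in control and 40.3, 19.4 and 32.4 units in Cre cultures. On both of these scales the lowest Cre array was thus above the highest control array. Every value was below the 95th percentile of the receptor probes of its array.

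In SD of the blank spots, Neurod1 stood at 6.30, 7.95 and 8.24 in control and 21.6, 13.7 and 26.9 in Cre cultures. Between 0 and 4 of the 2736 blank spots were at or above it on an array. Of the receptor probes, 70.2% to 77.6% were below it on the control arrays and 87.1% to 93.8% on the Cre arrays. The Cre values thus lay higher within the receptor probes than the control values, but below their 95th percentile.

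The normalized log2 values of Neurod1 were 5.85, 5.83 and 5.92 in control and 6.41, 6.19 and 6.37 in Cre cultures. The means were 5.87 ± 0.04 and 6.32 ± 0.12 (SD, n = 3 each), a log2 difference of 0.46 (SE 0.07, 95% interval 0.29 to 0.63), or 1.37-fold. Same-numbered arrays differed by 0.56, 0.36 and 0.45.

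The size of this difference depended on how much of the background remained in the values. The correction adds an offset of 50 units, which compresses differences of dim probes. With an offset of 10 the log2 difference was 1.12, and when the blank mean was simply subtracted it was 1.85. Without any background correction it was 0.37, and with the local background it was 0.28. In the authors' table Neurod1 read 5, 5 and 6 in control and 21, 12 and 19 in Cre cultures, with means of 5.33 ± 0.58 and 17.3 ± 4.73 (SD, n = 3 each) and a ratio of 3.25. The sign was positive under all 13 alternatives computed for this gene, and leaving out 1 array at a time gave 0.40 to 0.54.

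The local background around the Neurod1 spot was 59.2, 62.8 and 62.4 units in control and 71.3, 77.2 and 72.3 units in Cre cultures, so it was higher on each Cre array too. On Cre array 2 it came close to the spot (77.2 against 81.8 units). Measured from the local background, that spot was less raised than on any control array, so the groups were not separated on that basis. The probes spotted directly beside Neurod1 were read for this reason, after its values were seen. Fst, the gene of the activin antagonist follistatin, lies beside it and read 217, 165 and 181 units in control and 358, 180 and 251 units in Cre cultures, a log2 difference of 0.47. Large2, the other dim neighbour, read 73.9, 75.9 and 74.9 units in control and 82.5, 70.8 and 80.0 units in Cre cultures, a log2 difference of 0.02. The log2 differences of the remaining neighbours were -0.01 for Cdk16, 0.01 for Ift57 and 0.14 for Ift27. On the normalized log2 scale the difference of Fst was thus about that of Neurod1, and those of 4 neighbours were smaller. The offset compresses differences of dim probes on that scale, so it reduces the difference of Neurod1 more than that of the brighter Fst. In spot readings the groups of Fst overlapped (180 units on Cre array 2 against 217 units on the highest control array), whereas those of Neurod1 did not. The part of the position on the array in the Neurod1 difference was not tested.

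**Figure D3:**
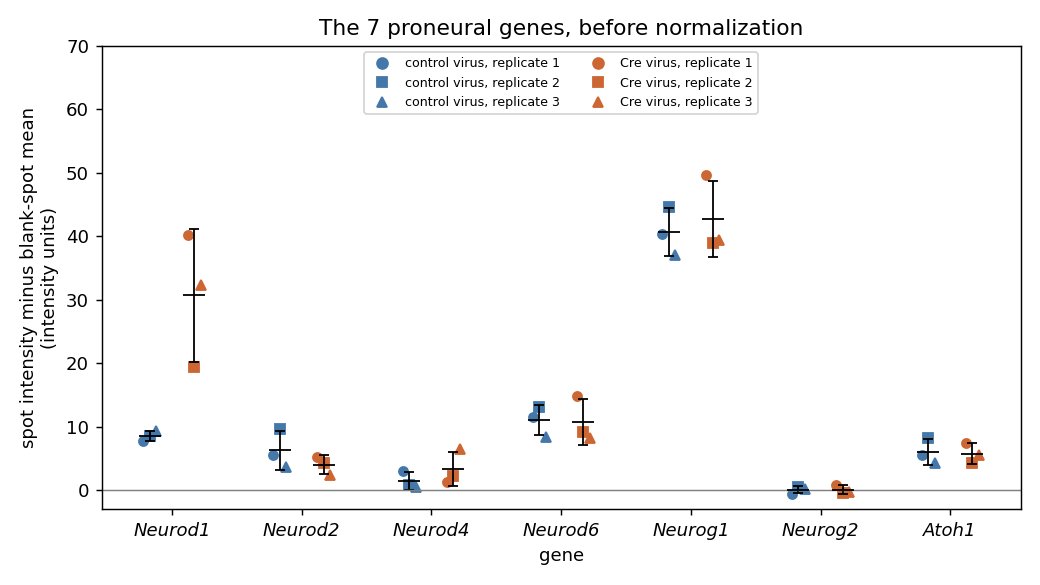
Spot intensity less the mean of the blank spots (intensity units, before normalization) of the 7 proneural genes, for each of the 3 control virus and 3 Cre virus arrays; black bars are the group mean ± SD (n = 3). Neurod1 is at 7.83 to 9.30 units on the control arrays and 19.4 to 40.3 on the Cre arrays, while the groups of the other 6 genes overlap.

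The promoter of Neurod1 is shown for comparison with that of Olig2, as the gene with the largest log2 difference in the fit reported here, though not with the local background, where that of Olig1 was larger. The 250 bases upstream of its start, chr2:79456637-79456886 on the minus strand of GRCm38.p6 (RefSeq), with the match to CANNTG in capitals, read 5′ to 3′:
Neurod1: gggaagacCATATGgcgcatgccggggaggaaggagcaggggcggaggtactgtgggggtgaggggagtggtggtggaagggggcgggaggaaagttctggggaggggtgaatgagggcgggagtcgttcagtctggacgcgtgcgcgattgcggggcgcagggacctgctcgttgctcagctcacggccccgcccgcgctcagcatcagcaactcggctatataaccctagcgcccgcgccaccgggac
The match was CATATG, and CAGATG, an E-box known to be bound by NeuroD and neurogenin factors, was not found on either strand. Windows were held for 8 of the 9 genes, with 2 start sites for Neurod4. Neurod2 had 3 matches, of which the one farthest from the start was CAGATG, Neurod6 had 2 of other forms, and Neurod4, Neurog1, Neurog2, Atoh1 and Olig2 had 0. So 3 of 9 windows held the motif, beside 66.2% of all 32851 windows of the same length, and 14.4% of all windows held CAGATG on either strand. A match is a run of letters and says nothing about binding.

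On the chromosome, the genes on either side of Neurod1 in the RefSeq order had smaller differences. Cerkl showed a log2 difference of 0.03 (SE 0.07) and Itprid2 one of 0.03 (SE 0.09). The 3 genes with array profiles most like Neurod1 were Sec61a1, the pore of the protein translocation channel of the endoplasmic reticulum, Tm7sf3, a membrane protein gene, and S1pr3, a receptor for sphingosine 1-phosphate. Their root mean square differences from Neurod1 were 0.05, 0.06 and 0.07 log2 units over 6 arrays, and their log2 differences were 0.50, 0.45 and 0.37. Being chosen for likeness to Neurod1, they had to show differences near its own. Sec61a1 and Tm7sf3 were brighter (means of 9.19 and 8.77 log2 units, against 6.10 for Neurod1), so the offset compresses their differences less.

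Neurod2, a factor of maturing cortical projection neurons, read 70.1, 74.3 and 69.6 units in control and 75.8, 66.7 and 73.1 units in Cre cultures. In SD above the blanks this was 4.42, 9.03 and 3.24 in control and 2.82, 3.07 and 1.95 in Cre cultures, the last of these just short of 2. On that scale the groups did not overlap, whereas in the normalized log2 values and in units above the blank mean they did. The log2 difference was -0.04 (SE 0.04). It was -0.14 with an offset of 10, -0.48 when the blank mean was simply subtracted and -0.64 in the authors' values. The authors' table listed it at 4, 5 and 3 in control and 3, 3 and 1 in Cre cultures, the lowest filled value on that scale being 1.

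Neurod4, which acts beside the neurogenins in early neuronal differentiation, stood at 2.42, 0.77 and 0.39 SD in control and 0.72, 1.61 and 5.33 SD in Cre cultures. It was above background on control array 1, just past the threshold, and on Cre array 3. Its probe was left out of the fit across probes by the filter on dim probes, and its log2 difference, 0.06 (SE 0.04), is given for completeness. That value was 0.22 with an offset of 10, 0.24 with the local background and 1.07 when the blank mean was simply subtracted. The authors' table had an empty cell on 3 of the 6 arrays and read 2 in control replicate 1 and 1 and 4 in Cre replicates 2 and 3.

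Neurod6, a factor of cortical excitatory neurons, was steadier, at 9.31, 12.2 and 7.43 SD in control and 7.99, 6.46 and 6.84 SD in Cre cultures. The log2 difference was 0.006 (SE 0.04, 95% interval -0.10 to 0.11), and the groups overlapped. The authors' values were 7, 7 and 6 in control and 8, 6 and 5 in Cre cultures. The sign of so small a difference changed under 3 of 13 alternatives, with values from -0.08 (authors' values) to 0.08 (local background). Its neighbour Adcyap1r1, the receptor for the peptide PACAP, had a log2 difference of 0.12 (SE 0.04; limma adjusted p = 0.768).

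Among the neurogenins, which start neuronal differentiation in progenitors, Neurog1 lay well above the blanks and Neurog2 could not be told from them. Neurog1 read 105, 109 and 103 units in control and 120, 101 and 110 units in Cre cultures, or 32.5, 41.6 and 32.8 SD and 26.6, 27.5 and 32.7 SD above the blanks. Its spot was above 93.9% to 94.9% of the receptor probes, so it lay near the top of the range of the receptor probes. The local background around the spot was 82.5, 75.5 and 70.1 units in control and 80.5, 92.5 and 73.6 units in Cre cultures. It was thus above the blank mean on each array, and on Cre array 2 it was close to the spot (92.5 against 101 units). The distances from the blanks take no account of this. The log2 difference was 0.04 (SE 0.05, 95% interval -0.08 to 0.16), and it was 0.23 with the local background and -0.04 in the authors' values. The authors' values of 26, 24 and 26 in control and 26, 25 and 23 in Cre cultures overlapped. Its neighbour Cxcl14, a chemokine gene, had a log2 difference of 0.26 (SE 0.15) and did not pass.

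Neurog2 stood at -0.43, 0.51 and 0.17 SD from the blank mean in control and 0.46, -0.30 and -0.21 SD in Cre cultures. On each array, 20.8% to 66.4% of the blank spots were at least as bright. All 6 cells of the authors' table were empty for this gene. No Neurog2 signal was detectable with this probe, in either group.

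Atoh1, the factor of cerebellar granule cell precursors and inner ear hair cells, stood at 4.40, 7.72 and 3.75 SD in control and 4.01, 2.998 and 4.63 SD in Cre cultures. The blank spots at or above it numbered 0 to 22 of 2736, so it passed the threshold on all 6 arrays but only narrowly. Its log2 difference was 0.009 (SE 0.03, 95% interval -0.08 to 0.09), and it was 0.10 when the blank mean was simply subtracted. The authors' values were 3, 4 and 3 in control and 4, 3 and 3 in Cre cultures, with equal means. Its neighbour Smarcad1, a chromatin remodeller, had a log2 difference of -0.07 (SE 0.06).

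Across the set, 0 of the 7 members kept by the filter passed a limma adjusted p of 0.05, beside 0% of the 20521 probes tested (smallest adjusted p 0.405). At an unadjusted p under 0.05 in limma there were 1152 of all probes tested. In the normalized log2 values, the groups of 1 of the 7 members did not overlap, beside 10.5% of all probes tested, as given above. Of the 7, 4 were higher and 3 lower in the Cre group, and the median of their log2 differences was 0.006, beside -0.0007 over all probes tested. The intervals of the dim genes are on a scale that the offset of 50 compresses, so their width cannot be set against that of Olig1 and Olig2.

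**Figure D4:**
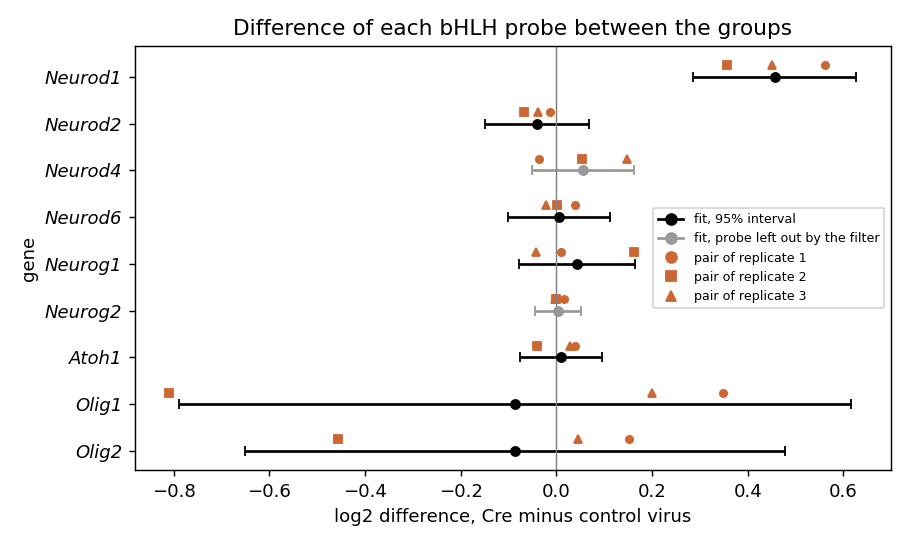
Log2 difference, Cre minus control virus, of each of the 9 probes with its 95% interval from the limma fit (grey for Neurod4 and Neurog2, which the filter on dim probes left out); orange markers are the differences of same-numbered arrays. Neurod1 is at 0.46 with all 3 pairs above 0, and the intervals of the other 8 genes include 0.

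The dimerization partners of these factors were measured on the same arrays. All 3 E-protein genes were tested and none was called; all 3 had lower means in the Cre group, and their median log2 difference was -0.04. Tcf3, which encodes E2A, had a log2 difference of -0.19 (SE 0.16) and Tcf4 one of -0.04 (SE 0.05), both within the spread of the arrays.

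Of the 10 inhibitor genes, 7 or 8 lay above the receptor reference on an array. Of these Id, Hes and Hey genes 9 were tested, 4 were higher and 5 lower in Cre cultures, none was called, and the median log2 difference was -0.08. Id3 had a log2 difference of 0.18 (SE 0.06) and Id1 one of -0.09 (SE 0.04), with opposite signs. For both, the groups did not overlap, as for 10.5% of all probes tested. Hes6, which unlike Hes1 promotes neuronal differentiation, read 10.51 and 10.29 log2 units in control and Cre cultures.

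Of the other neural bHLH genes, 13 of the 14 on the array were tested, 9 were higher and 4 lower, none was called, and the median log2 difference was 0.01. The smallest unadjusted p belonged to Ascl2, with a log2 difference of 0.16 (SE 0.07), and Ferd3l, with 0.13 (SE 0.08), and the groups overlapped for both. For Neurog3, at 2.93 to 5.09 SD above the blanks, they did not overlap (log2 difference 0.02, SE 0.03), as for 10.5% of all probes tested.

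Among direct targets of proneural factors, signs were mixed. Of 16 tested, 11 were higher and 5 lower in Cre cultures, none was called, and the median log2 difference was 0.01. Rnd2, a small GTPase that controls migration of new neurons, had a log2 difference of 0.11 (SE 0.07), and the Notch ligand gene Dll3 one of -0.11 (SE 0.07). Eomes, which encodes the intermediate progenitor factor Tbr2, read 6.25 and 6.26 log2 units. Dcx, the microtubule protein of migrating neurons, read 5.95 in both groups.

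Neuronal lineage genes, a list of general neuronal markers, were split. Of 17 tested, 9 were higher and 8 lower, none was called, and the median log2 difference was 0.0007. The neurofilament genes Nefm (6.31 to 6.70 log2 units, difference 0.39, SE 0.07) and Nefl (difference 0.16, SE 0.06) were higher in Cre cultures without overlap. So was Elavl3 (difference 0.07, SE 0.04), while Stmn2, a growth cone protein gene, was lower without overlap (difference -0.34, SE 0.12). Of all probes tested, 10.5% did not overlap. Of the 19 genes with a probe, 17 were above background on every array, and 4 or 5 exceeded the receptor reference. The summed signal over the blanks was 2098 to 3387 units in control and 1919 to 3165 in Cre cultures, and the groups overlapped. Gap43 (707 to 1682 SD above the blanks) and Stmn2 (268 to 782 SD) were the brightest genes in this sum. It therefore says little about the dim genes of the list. The part of neuronal cells in the Neurod1 signal was not tested.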

How the data were processed

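Total RNA of 6 samples (3 control virus, 3 Cre virus) was converted to amplified aminoallyl RNA, labelled with Cy5 and read on 1-colour arrays, per the labels' protocols. The scanner files as deposited give a median intensity per spot and a local background intensity, not subtracted, per the file headers. The authors also deposited a table of linear intensity values. Compared with the scanner readings, a column of that table was the spot less about the blank mean, divided by 1 factor per array (1.44 to 1.94), with a median of 25 and 1609 to 3178 empty cells. Scale and direction are thus known, but how the factors and empty cells were chosen is not stated there.

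Spots were corrected by normexp on the blank spots (limma 3.58.1 nec, offset 50, R 4.3.3), log2 transformed and quantile normalized. Spots marked by the scanner (0 to 9 per array) were left out, and 20521 probes with values on 6 arrays that were above background on at least 3 of them were fitted with lmFit and eBayes (two-sided, Benjamini-Hochberg). The fit was also run on simulated data with independent noise and with changes larger than those of the members. That run left out the correlation of same-numbered arrays, so it does not bear on differences of the size reported here. An exact permutation test of 3 against 3 arrays cannot go below 0.1, and precision is limited by the number of arrays.

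Of the 23473 probes, 20690 had 1 symbol in the platform annotation, 0 had several and 2783 had none; 20556 matched RefSeq's table by Entrez ID. The members and lists were chosen with earlier results of these data known. Named were all members, up to 2 genes per list by smallest unadjusted p, the 3 nearest profiles of the member with the largest difference and of the brightest, and Chd7; other names were chosen after their values were seen. The brightest kept probe stood for a list gene.

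Deviations from the group means correlated between same-numbered arrays at 0.498, 0.425 and 0.436. The labels state no shared litter or day, and the fit reported here did not pair the samples. Its SEs, intervals and adjusted p values thus take no account of pairing. The replicate numbers, taken from the labels, served only for the differences of same-numbered arrays and for the replicate block, an alternative. Alternatives were other background corrections, an offset of 10, median scaling, the authors' values (log2 of the value plus 1), other filters, a variance trend, the replicate block and leaving out each array, plus 4 thresholds added after seeing the data.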

Additional observations from a re-analysis of the deposited data

How the results depend on the processing

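No call depended on the processing: 0 probes passed an adjusted p of 0.05 in limma under every alternative run, members included. The smallest adjusted p of any probe was 0.0720 (without control replicate 2), and that of a member ranged from 0.176 (offset 10) to 0.982 (without Cre replicate 3). Probes at an unadjusted p under 0.05 numbered 612 (median scaling) to 2156 (authors' values), against 1152 as reported. With the replicate block that count was 1916, with 0 past the adjusted threshold, and the block changed no call. Leaving out 1 array at a time gave counts of 0 to 0. The count of members above background was 7 or 8 under 7 other thresholds, and 2 with the 95th percentile of the receptor probes, a reference added after seeing the data. Signs of the log2 differences held under every alternative for Neurod1, Neurod2 and Neurod4, and the difference of Neurog2 turned to 0 under 1. The sign changed under 1 for Neurog1 and Olig1 and under 3 for Neurod6 and Olig2. For Atoh1 it changed without control replicate 3 and without Cre replicate 1, and the difference was 0 in the authors' values. All 7 proneural probes stayed below the receptor reference on every array, which limits what they can show.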
